A study of Mus musculus with 8 samples.

Results

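Heat shock proteins and the chaperones of the endoplasmic reticulum (ER) were examined in mouse liver. They were taken by gene name as the HSP70 and HSP110 proteins (Hspa and Hsph1), the HSP90 proteins, the small heat shock proteins (Hspb), the mitochondrial chaperonin pair Hspd1 and Hspe1, the J-domain proteins (Dnaja, Dnajb and Dnajc) and the protein disulfide isomerases (Pdia), leaving out pseudogenes. This rule took 63 of the 14506 genes listed, and 55 of these were among the 11174 genes with a mean normalized count of at least 10 that were tested.

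The livers came from 4 Rragc +/+ and 4 Rragc S74N/+ mice on a C57BL/6 background, each library from a separate mouse. RagC is a GTPase that recruits the growth-promoting kinase complex mTORC1 to lysosomes when nutrients are present, and S74N is a knocked-in substitution, carried on 1 allele in every cell, that mimics the activating GDP-bound state. Rragc +/+ replicates 1 to 3 and Rragc S74N/+ replicates 1 and 2 were 3 months old, Rragc +/+ replicate 4 and Rragc S74N/+ replicate 3 were 2.5 months old, and Rragc S74N/+ replicate 4 was 2 months old. RNA was read from the 3′ end of polyadenylated transcripts, so a level counts transcript ends and is not divided by gene length. Sex and time of day at collection were not given for these livers in the sources used here.

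Chaperones bind unfolded protein, and most are controlled by stress pathways that sense it. In the cytosol and nucleus, HSF1 binds repeated heat shock elements and induces Hsp70, Hsp90, small heat shock protein and J-domain protein genes. In the ER, ATF6 and the spliced form of XBP1 induce chaperones and disulfide isomerases through the ER stress element, while PERK acts through ATF4. mTORC1 raises protein synthesis, and with it the load on these systems, and hepatocytes secrete large amounts of protein such as albumin through the ER.

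The promoter elements are shown first, because later comparisons refer to them. RefSeq promoter windows (GRCm38.p6, 250 bases before to 50 after each annotated start site) were found for 51 of the 63 genes. The ER stress element, searched on both strands as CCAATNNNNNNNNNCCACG and its complement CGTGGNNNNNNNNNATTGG, was present in 4 of these 51 genes (7.84%) and in 0.137% of the 27025 genes in the table. These 4 genes were Hspa5, Hsp90b1, Pdia6 and Dnajc3, which are later compared across the livers. The stretches below are written 5′ to 3′ on the strand of the gene, with the element in capitals. They lie at chr2:34772020-34772048 (Hspa5, forward strand), chr10:86705523-86705666 (Hsp90b1, reverse strand, which holds the element in both orientations), chr12:17266486-17266514 (Pdia6, forward strand) and chr14:118937822-118937850 (Dnajc3, forward strand).
Hspa5: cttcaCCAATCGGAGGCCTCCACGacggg
Hsp90b1: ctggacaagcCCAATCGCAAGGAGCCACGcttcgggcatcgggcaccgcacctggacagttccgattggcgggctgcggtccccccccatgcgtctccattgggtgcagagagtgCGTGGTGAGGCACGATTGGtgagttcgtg
Pdia6: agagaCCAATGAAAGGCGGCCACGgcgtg
Dnajc3: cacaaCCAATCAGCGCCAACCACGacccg

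Heat shock elements were more widespread. The form with 2 units, GAANNTTC or TTCNNGAA (each is its own complement), was found in 13 of 51 member genes (25.5%) and in 17.0% of all genes. The form with 3 units, GAANNTTCNNGAA or TTCNNGAANNTTC, each of which contains 2-unit matches, was found in Dnajb6, Hspd1, Hspe1 and Hsph1 (7.84% of the member genes, 0.662% of all genes). Hspd1 and Hspe1, the subunits of the mitochondrial HSP60 and HSP10 folding chamber, are transcribed away from each other on chromosome 1, with 215 bases between the start sites of this pair of windows. A single run of 4 units lay between them, and with its flanks it is shown from 94 to 67 bases before the Hspe1 start site. Hspa1b, one of the strongly heat-inducible Hsp70 genes, is shown for comparison with its 2-unit element. The stretches are chr1:55088054-55088081 (forward strand, the strand of Hspe1), chr5:29735847-29735869 (Dnajb6, forward strand) and chr17:34959330-34959347 (Hspa1b, reverse strand). A match describes these letters and is not shown to be bound.
Hspd1 and Hspe1: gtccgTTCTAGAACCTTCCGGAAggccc
Dnajb6: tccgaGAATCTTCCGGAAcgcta
Hspa1b: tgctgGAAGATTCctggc

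**Figure D1:**
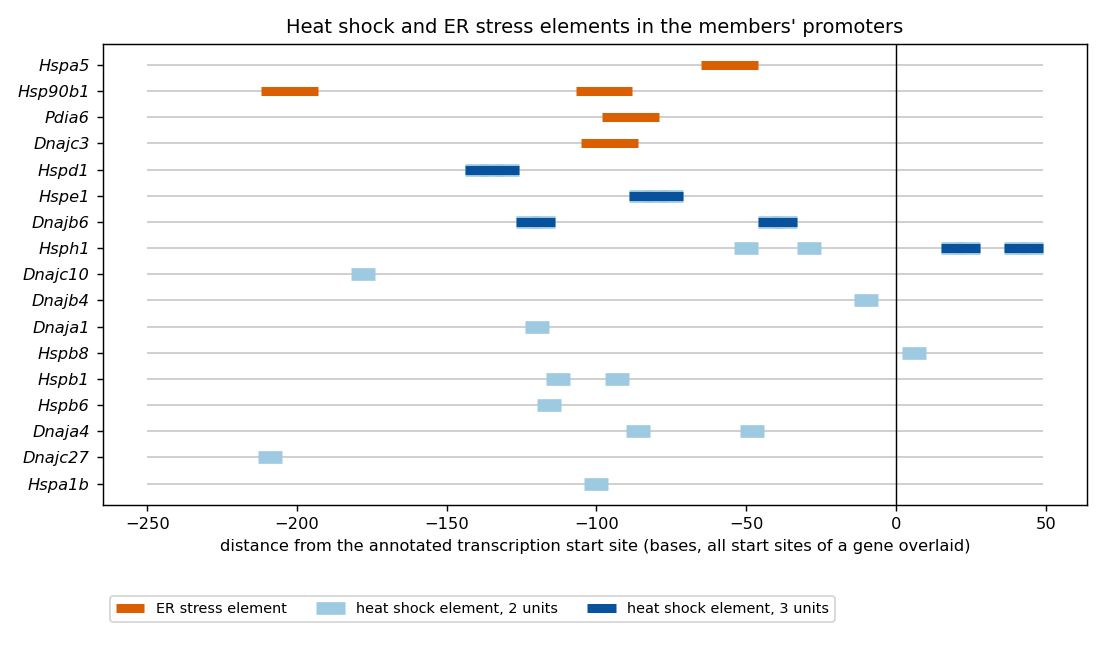
Positions of heat shock elements and ER stress elements in the promoter windows of the members that hold one, in bases from the annotated start site (x axis), with 1 row per gene and all start sites of a gene overlaid. The 4 genes with an ER stress element have it before the start site, and the 3-unit heat shock element of Hsph1 lies after it.

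Chaperone reads made up between 0.486% and 0.625% of the 4313076 to 6632108 reads recovered per liver. The 5 most abundant members, Hsp90ab1, Hspa5, Hsp90b1, Hspe1 and Pdia3, held 54.2% of the summed mean level, and 10 members had a mean of at least 1000 normalized counts. Hspa1b was close to absent from the counts, with 0 to 9 reads per liver and a mean of 3.55 normalized counts. A further 7 members, Dnajb5, Dnajc24, Dnajc27, Hspa12a, Hspa12b, Hspa2 and Hspb11, also stayed under the minimum mean of 10 and were not tested. The constitutive cytosolic HSP70 gene Hspa8, at a mean of 479, was thus counted far above the inducible one that was listed. Hspa1a was not among the genes listed. Genes with near-identical copies could share reads, so the count of Hspa1b may not give its level.

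To ask whether chaperone transcripts differed when RagC carried the activating substitution, the genotypes were compared gene by gene. No member passed the test between Rragc S74N/+ and Rragc +/+ livers. With limma and Benjamini-Hochberg adjustment over all 11174 genes, 0 of 55 members had an adjusted p under 0.05, where 0.00895% of all genes did. At an unadjusted limma p under 0.05 the count was again 0 of 55, against 5.17% of all genes, and edgeR and DESeq2 on the recovered reads each placed 1 member there, Dnajc18, where 5.53% and 6.05% of all genes were. Without Rragc S74N/+ replicate 3 the unadjusted count was 8 of 56, where 15.0% of all genes passed, and none passed adjustment. The groups did not overlap for 0 members and for 2.94% of all genes. Of the members, 24 were higher and 31 lower in Rragc S74N/+, with a median log2 difference of -0.04 beside 0.01 over all genes. The smallest limma p was that of Dnajc13, an endosomal J-domain protein (limma p = 0.0727, limma adjusted p = 0.846, exact two-sided permutation p = 0.2). By the exact test the smallest was that of Dnajc8 (exact two-sided permutation p = 0.0571, limma p = 0.145).

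The intervals show how large a difference these livers leave possible. The 95% confidence interval lay within 1 on the log2 scale in either direction for 38 of 55 members, and within 0.5 for 7 of them. Its median half-width was 0.56. Point estimates exceeded 0.5 in size for 6 members. In bulk tissue, fewer cells of a type and less RNA per cell cannot be told apart.

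**Figure D2:**
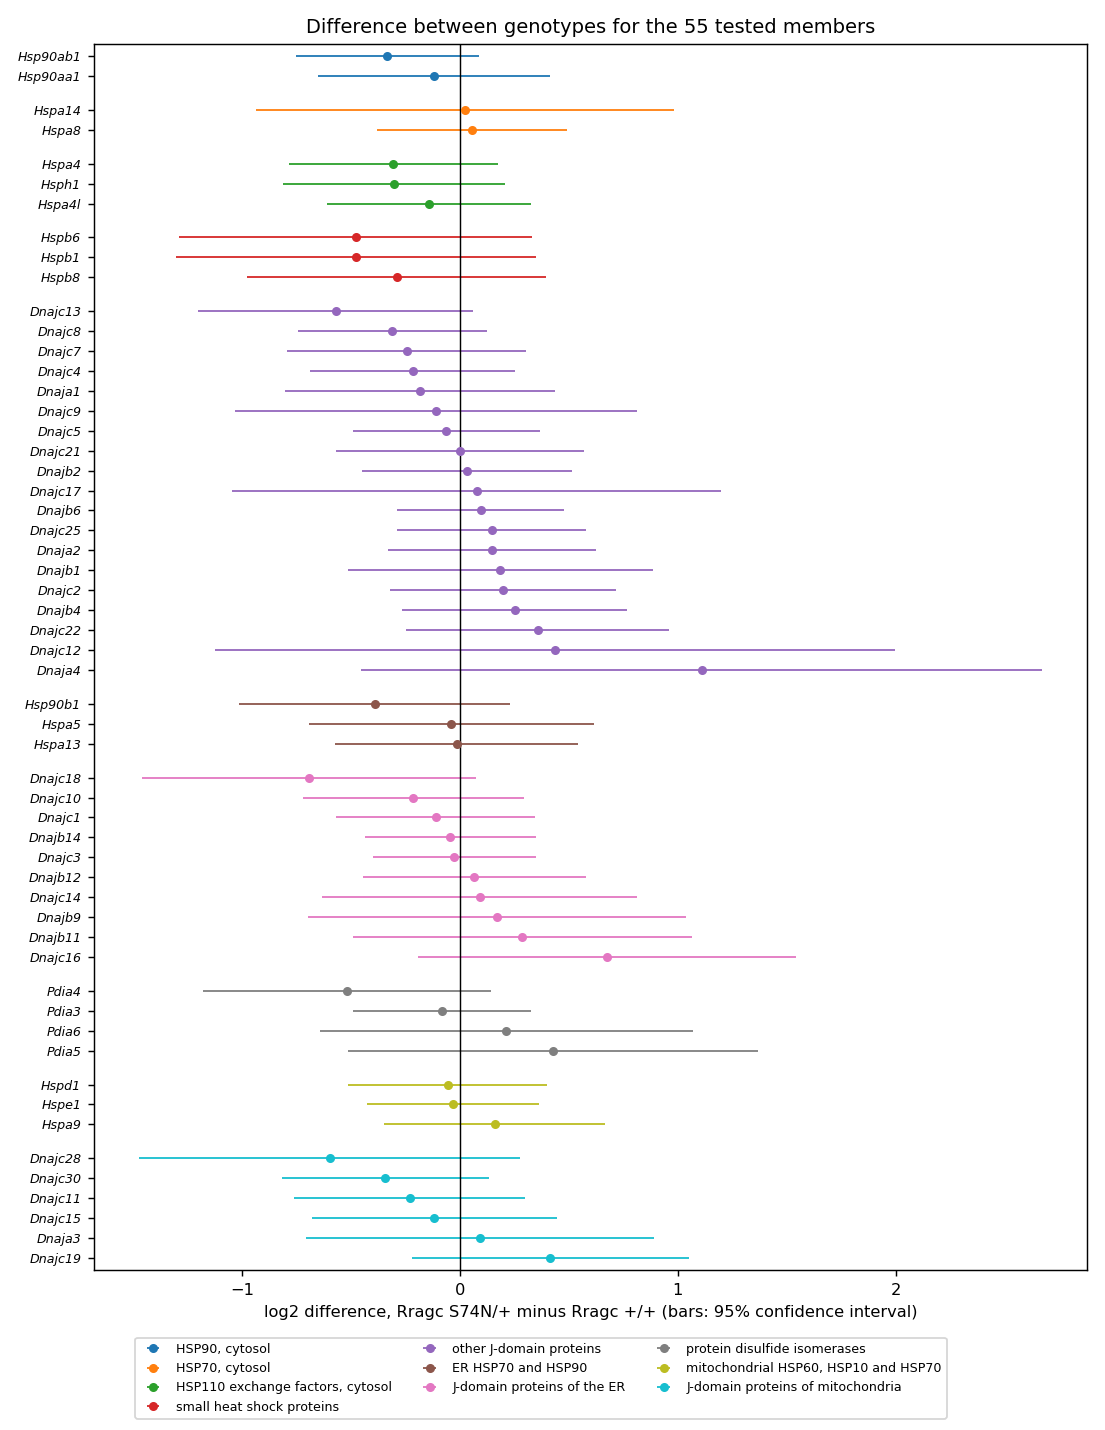
Log2 difference between Rragc S74N/+ and Rragc +/+ livers (x axis) for the 55 tested members, 1 row per gene, coloured by role. Points are limma estimates from 4 livers per genotype and bars are 95% confidence intervals, all of which include 0.

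The cytosolic HSP90 proteins fold kinases and hormone receptors, and Hsp90ab1, the constitutive form, was the most abundant member. Hsp90ab1 (chr17:45567775-45573271, reverse strand) was at 8972, 7931, 6763 and 7307 normalized counts in the Rragc +/+ livers, listed here and below from replicate 1 to 4, and 6093, 5491, 7336 and 5674 normalized counts in the Rragc S74N/+ livers in the same order. The Rragc S74N/+ livers lay below all Rragc +/+ livers with 1 exception, the 2.5-month-old one, which overlapped them. The means were 7743 ± 948 and 6148 ± 831 (SD, n = 4 each), a log2 difference of -0.33 with a 95% interval from -0.75 to 0.08 (limma adjusted p = 0.846). Hsp90aa1, the more inducible form, differed by -0.12 with an interval from -0.65 to 0.41. Its highest levels, 993 and 889, were in the 2.5-month-old liver of each genotype, and the other 6 livers ran from 503 to 736.

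The cytosolic HSP70 of unstressed cells, Hspa8, ran from 364 to 562 in all livers and differed by 0.05 between genotypes, with an interval from -0.38 to 0.49. Its nucleotide exchange factors of the HSP110 family were all lower in Rragc S74N/+ in estimate, and none passed. Hspa4 differed by -0.31, Hsph1 by -0.30 and Hspa4l by -0.14 on the log2 scale, each with an interval that included 0. Hsph1 was at 138.9, 141, 168 and 168 in Rragc +/+ and at 149, 106, 159 and 94.6 in Rragc S74N/+ livers. Both lowest values were thus from Rragc S74N/+, and the groups overlapped.

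Among the J-domain partners of cytosolic HSP70, Dnajb1 and Dnaja1 are induced with it by heat. Dnajb1 averaged 76.6 ± 26.9 normalized counts in Rragc +/+ and 85.2 ± 24.7 in Rragc S74N/+ livers, and Dnaja1 259.7 ± 52.8 and 239 ± 105 (SD, n = 4 each). Neither difference exceeded the spread between livers (limma adjusted p = 0.907 and 0.896). Dnaja4 had the largest difference of the 55 tested members, 1.11, with an interval from -0.45 to 2.67. It rested on few reads, 2 to 36 per liver, and its levels were 1.86, 9.35, 4.24 and 7.47 in Rragc +/+ and 16.5, 32.0, 5.57 and 6.53 in Rragc S74N/+. Both 3-month-old Rragc S74N/+ livers were high, and the 2 younger ones lay among the Rragc +/+ livers. In 3-month-old mice alone, Dnaja4, Dnajb11 and Dnajc13 had an unadjusted p under 0.05, which is 3 of 55 where 5.74% of all genes did, and none passed adjustment (smallest limma adjusted p = 0.834).

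The small heat shock proteins hold unfolded protein without using ATP. Hspb1 (chr5:135887919-135889563, forward strand) varied widely, at 1397, 3369, 1109 and 1176 in Rragc +/+ and 1864, 1123, 1318 and 590 in Rragc S74N/+ livers. The highest and lowest levels, Rragc +/+ replicate 2 and Rragc S74N/+ replicate 4, stood 5.71-fold apart. The log2 difference was -0.48 with an interval from -1.31 to 0.35, and those of Hspb6 and Hspb8, the other 2 tested small heat shock proteins, were -0.48 and -0.29. These sizes rested on single livers. Without Rragc +/+ replicate 2 the difference was -0.11 for Hspb1 and -0.068 for Hspb8, without Rragc +/+ replicate 1 it was -0.084 for Hspb8, and without Rragc S74N/+ replicate 4 it was -0.17 for Hspb1 and -0.10 for Hspb6. Hspb8, which works with Bag3 in selective autophagy, was high in Rragc +/+ replicates 1 and 2 (938 and 970) and ran from 379 to 643 in the other 6 livers.

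**Figure D3:**
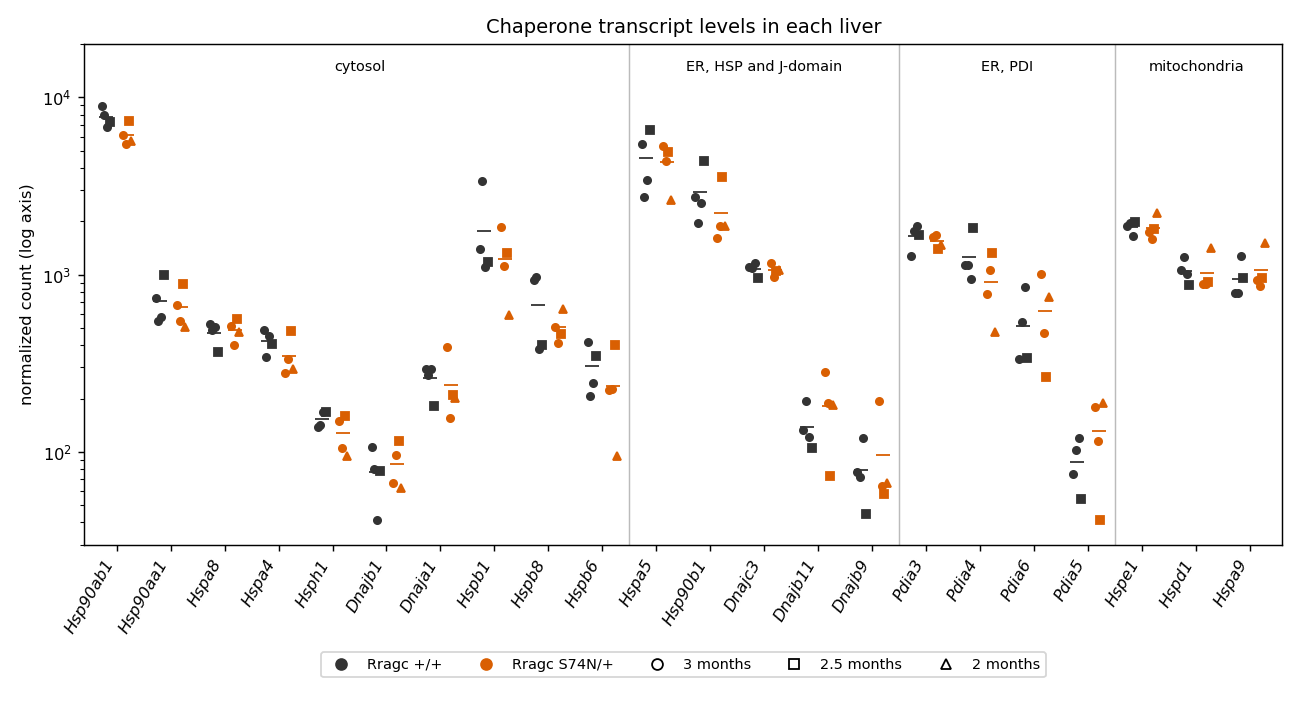
Normalized counts (y axis, log scale) of 22 members in each of the 8 livers, grouped by compartment. Points are single livers, with shape giving age, and lines are the means of 4 livers. The genotypes overlap for every member shown, and in Hsp90b1 and Hsp90aa1 the 2 livers aged 2.5 months are the highest.

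In the ER, Hspa5 (BiP), the HSP70 that also holds the stress sensors inactive, was at 5425, 2730, 3421 and 6585 in Rragc +/+ and 5296, 4348, 4912 and 2633 in Rragc S74N/+ livers. Low and high livers occurred in both genotypes, and the difference was -0.04 with an interval from -0.70 to 0.61. Hsp90b1 (GRP94), the HSP90 of the ER, was at 2752, 1965, 2539 and 4373 in Rragc +/+ and 1616, 1878, 3539 and 1890 in Rragc S74N/+. Its difference was -0.39 with an interval from -1.01 to 0.23. The 2.5-month-old liver of each genotype held the highest Hsp90b1 level of that genotype, and 1 liver per genotype at that age allows no test of age apart from the animal. Hspa13, a microsomal HSP70, differed by -0.02.

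J-domain proteins of the ER recruit Hspa5 to its clients. Dnajc3, which holds the ER stress element, was the steadiest abundant ER member, at 957 to 1169 in all livers, 1.22-fold from lowest to highest. Dnajb9, a classical target of spliced XBP1 that returns Hspa5 to the sensor IRE1, was at 77.4, 72.0, 120 and 44.8 in Rragc +/+ and 195, 64.0, 57.9 and 66.9 in Rragc S74N/+. Only Rragc S74N/+ replicate 1 was above the highest Rragc +/+ level, and the genotypes overlapped (log2 difference 0.17, interval -0.70 to 1.04). Dnajb11, which delivers unfolded protein to Hspa5, was highest in the same liver, at 283, and ran from 73.5 to 193 elsewhere. Dnajc16 and Dnajc18, membrane J-domain proteins, had differences of 0.67 and -0.69, on 16 to 70 and 27 to 83 reads per liver. For Dnajc18 the high side rested on Rragc +/+ replicate 4, at 77.5, while the other 7 livers ran from 24.0 to 46.8.

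The protein disulfide isomerases, which form and rearrange disulfide bonds, split into opposite patterns. Pdia4 was at 1127, 1131, 939 and 1837 in Rragc +/+ and at 781, 1066, 1318 and 474 in Rragc S74N/+ livers. Pdia6 was at 334, 538, 847 and 340 in Rragc +/+ and at 1007, 468, 265 and 746 in Rragc S74N/+. Where Pdia4 was highest, in the 2.5-month-old liver of each genotype, Pdia6 was at 340 and 265, among its 3 lowest levels. Pdia5 followed Pdia6, from 41.2 in Rragc S74N/+ replicate 3 to 189 in Rragc S74N/+ replicate 4. Pdia3, the isomerase of glycoproteins and the most abundant of the 4 genes named Pdia, stayed between 1266 and 1890. P4hb, a disulfide isomerase that the name rule did not take, had a higher mean, 2095 against 1598. By genotype the log2 differences were -0.52 for Pdia4, 0.21 for Pdia6, 0.43 for Pdia5 and -0.08 for Pdia3, and none passed (smallest limma adjusted p of the 4 = 0.846).

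Among the mitochondrial chaperones, Hspe1 ran from 1580 to 2238 in all livers, a 1.42-fold range, and Hspd1 from 869 to 1415. Their genotype differences were -0.03 and -0.06, with intervals from -0.43 to 0.36 and from -0.52 to 0.40. For both genes Rragc S74N/+ replicate 4 was the highest, and it was also the highest for Hspa9, the mitochondrial HSP70, at 1513. Dnajc19, which serves the import motor at the inner membrane, differed by 0.41 with an interval from -0.22 to 1.05. Dnajc28 differed by -0.60 on 15 to 51 reads per liver.

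Differences between livers of the same genotype were larger for many members than those between genotypes. The SD of log2 values within a genotype had a median of 0.35 over the tested members and 0.45 over all genes. It was highest for Dnajc12 (1.27), Dnaja4 (0.97), Pdia5 (0.80), Pdia6 (0.74) and Hspb1 (0.72). In all, 15 tested members ranged over more than 3-fold between the lowest and the highest liver.

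Pairs of genes were then compared across the 8 livers, 7 pairs in all, on log2(normalized count + 1). Most were pairs of members that share a regulator by textbook knowledge. Hspa5 with Hspa8 was a pair across compartments, and Hspa8 with Cirbp one with a cold-induced gene that is not a member. No pair passed Benjamini-Hochberg adjustment of the exact two-sided permutation p. Hspd1 and Hspe1, which share a promoter region, had Pearson's r = 0.72 (exact permutation p = 0.0455, adjusted p = 0.275) and Spearman's rho = 0.38 (exact permutation p = 0.36, adjusted p = 0.808). Without the 2 livers farthest from the median of Hspd1 the r was 0.05, so the relation rested on them. Hspa5 had r = 0.64 with Pdia4 (exact permutation p = 0.0785, adjusted p = 0.275; rho = 0.52, exact permutation p = 0.197, adjusted p = 0.808) and 0.58 without 2 livers. With Hsp90b1 it had r = 0.55 (exact permutation p = 0.156, adjusted p = 0.365; rho = 0.45, exact permutation p = 0.267, adjusted p = 0.808) and 0.41 without 2 livers. Deviations from the genotype means gave 0.71, 0.71 and 0.59 for these 3 pairs. The other 4 pairs (Hspa8 with Hsp90aa1, Hspa5 and Cirbp, and Hsph1 with Dnajb1) had r from -0.22 to -0.08, with exact permutation p from 0.599 to 0.836 and adjusted p of 0.836. Their rho ran from -0.19 to 0.31 (exact permutation p from 0.462 to 0.977, adjusted p from 0.808 to 0.977). Without the 2 farthest livers their r ran from -0.46 to 0.99, the last for Hspa8 and Hsp90aa1, so that pair too depended on which livers were kept.

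The opposite patterns of Pdia4 on one side and Pdia5 and Pdia6 on the other followed the main component of variation between the livers. This comparison was added after the values were seen. The first principal component of the 11119 tested genes that were not members held 39.8% of the variance and did not separate the genotypes (exact two-sided permutation p = 0.257). The Rragc +/+ livers scored -0.59, 0.01, 0.35 and -1.39, and the Rragc S74N/+ livers 1.16, 0.08, -1.08 and 1.45, in order of replicate. Both 2.5-month-old livers lay at the low end and the 2-month-old liver at the high end.

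Along this component, with exact permutation p adjusted over all tested genes, 4 of 55 members rose (7.27%, where 8.26% of all genes did) and 4 fell (7.27%, where 6.13% of all genes did). These shares are near those of all genes, so the component is not particular to chaperones. The rising members were Pdia5 (r = 0.97, rho = 0.98), Dnajc19 (r = 0.95, rho = 0.93), Dnajc12 (r = 0.93, rho = 0.88), which assists the folding of aromatic amino acid hydroxylases, and Pdia6 (r = 0.89, rho = 0.83). Their adjusted exact permutation p were 0.016, 0.0157, 0.0212 and 0.039. The falling members were Pdia4 (r = -0.94, rho = -0.98), Hspa4l (r = -0.88, rho = -0.86), Hsp90b1 (r = -0.88, rho = -0.83) and Hspb6 (r = -0.84, rho = -0.74). Their adjusted exact permutation p were 0.0117, 0.0276, 0.0414 and 0.0455. Before adjustment the exact permutation p of r ran from 7.44e-05 to 0.00605, and that of rho from 0.000397 to 0.0458, over these 8 members. Without the 2 livers farthest from the median score, r stayed between 0.84 and 0.97 for the rising members and between -0.96 and -0.71 for the falling ones, and deviations from the genotype means gave r of the same signs. For Hspa4l and Hspb6 the exact permutation p without those livers was 0.106 and 0.0722.

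Hsp90b1 and Pdia6 both carry the ER stress element shown above, and lay at opposite ends of this component. Hspa5 (r = -0.61, adjusted exact permutation p = 0.266) and Dnajc3 (r = 0.50, adjusted exact permutation p = 0.391), which carry it too, did not pass in either direction. Of albumin and 3 clock genes picked from outside the members, 3 followed the same scores after adjustment. Albumin and the clock genes were themselves among the genes that made the component, and its direction was set to rise with Alb. Their r and p are thus no independent test of it. Alb, encoding albumin, ranged from 57178 to 252840 (r = 0.86, adjusted exact permutation p = 0.0485). The clock gene Nr1d1 was at 734 and 846 in the 2.5-month-old livers and at 154 to 389.7 in the others (r = -0.95, adjusted exact permutation p = 0.0238), and its target Arntl was at 21.5 and 20.1 in those livers and at 56.6 to 146 in the others (r = 0.90, adjusted exact permutation p = 0.0352). The clock output gene Dbp did not pass (r = -0.76, rho = -0.52, adjusted exact permutation p = 0.115). Other clock genes were not compared with the scores. Age, phase of the day and the state of the animal cannot be told apart with these livers, and their part in the chaperone values was not tested.

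**Figure D4:**
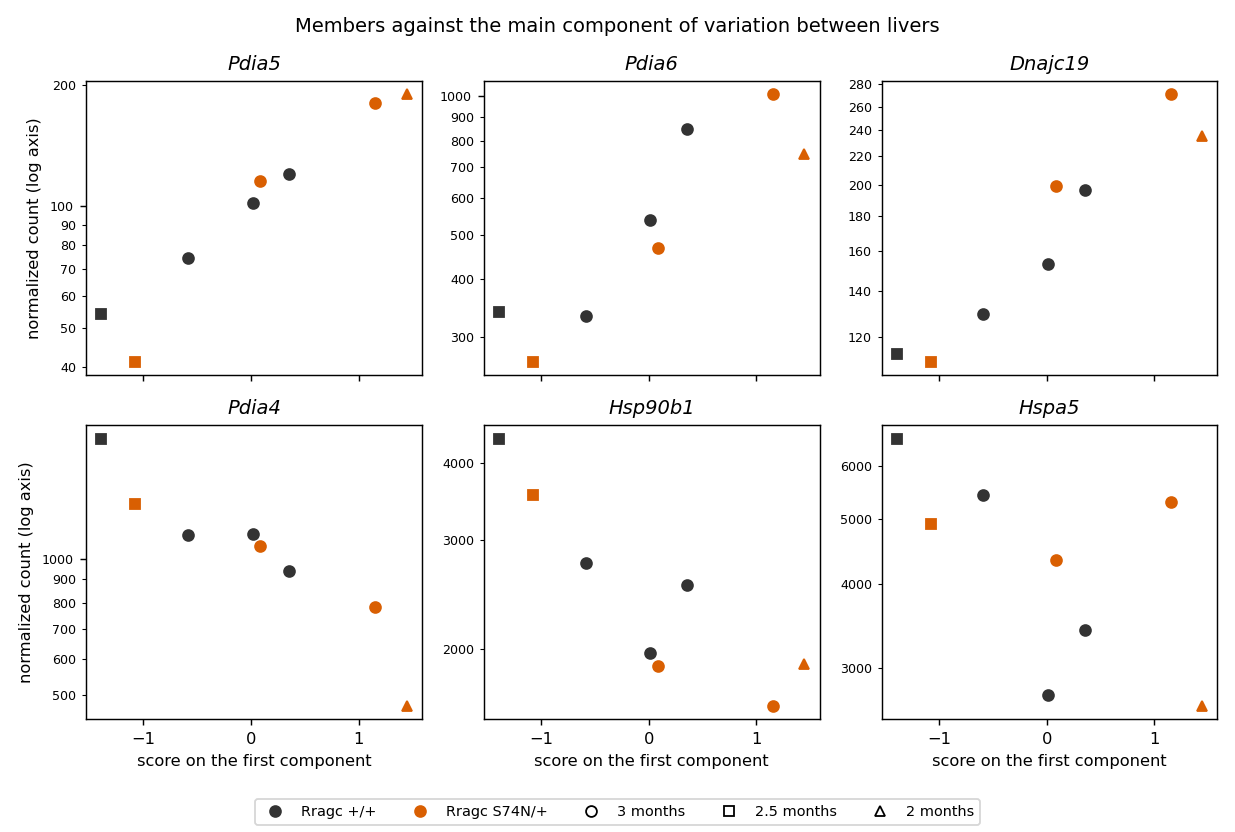
Normalized counts (y axes, log scale) of 6 members against the score of each liver on the first component of the genes that are not members (x axis, no unit). Each point is 1 liver, coloured by genotype and shaped by age. Pdia5, Pdia6 and Dnajc19 rise with the score, Pdia4 and Hsp90b1 fall, and Hspa5 is scattered.

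**Figure D5:**
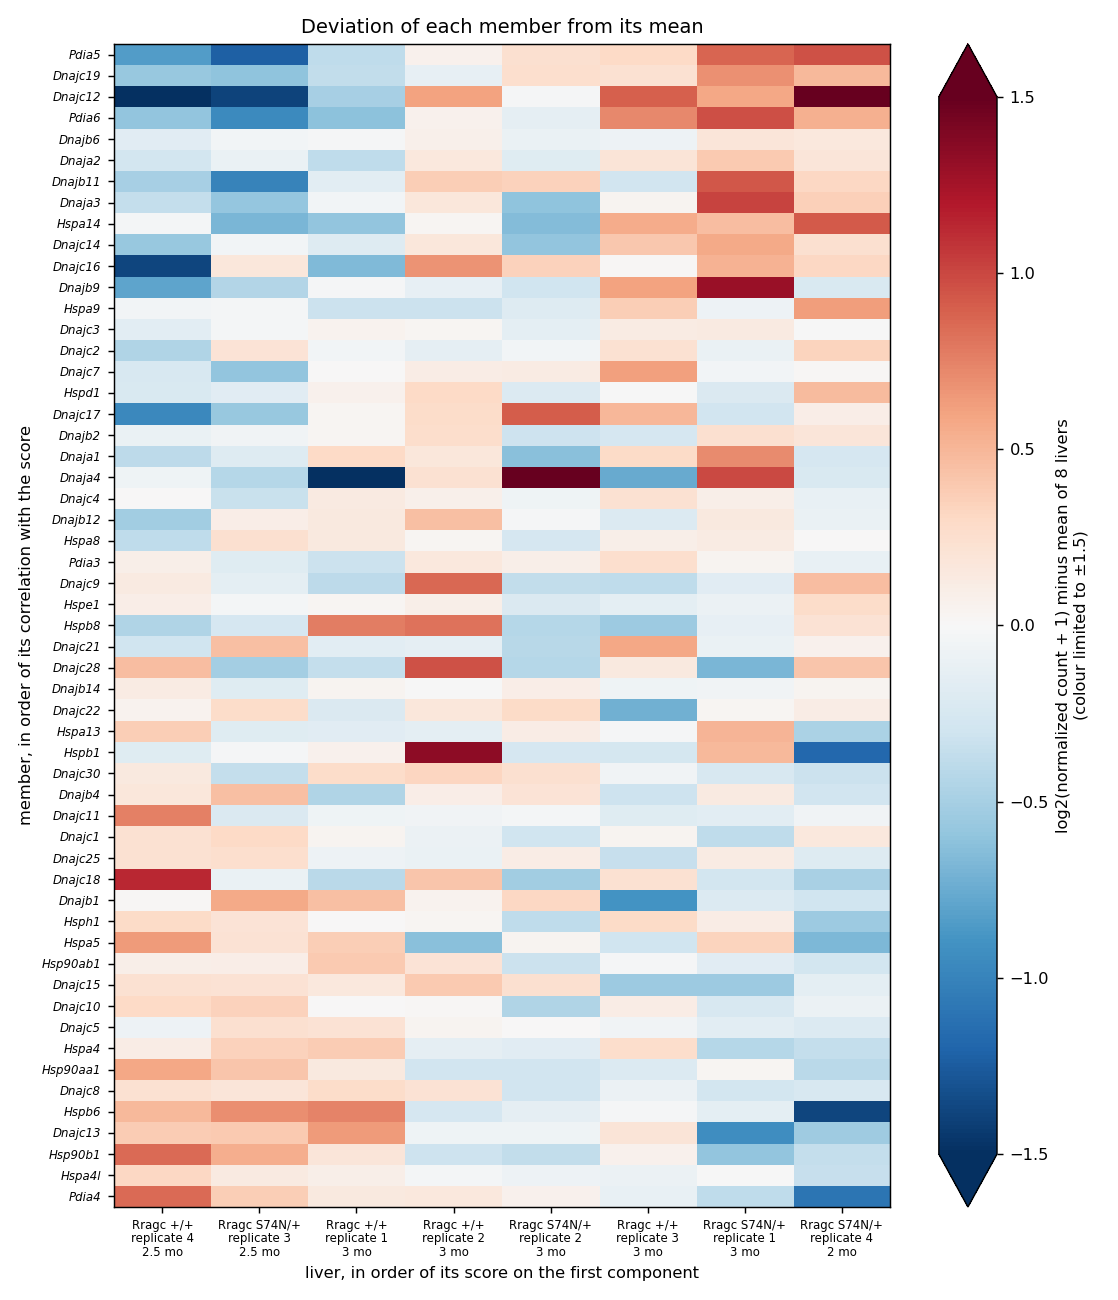
Deviation of each tested member from its mean over the 8 livers, in log2 units (colour, limited at 1.5 in either direction). Livers run from the lowest to the highest score on the first component and genes from the highest to the lowest correlation with it. The top and bottom rows change sign from left to right, from Pdia5 (r = 0.97) to Pdia4 (r = -0.94), with weaker correlations between them.

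Other genes of the same pathways were examined in lists written from textbook knowledge. Of 41 tested genes of ER stress signalling, folding and degradation, 0 passed adjustment and 2 had an unadjusted limma p under 0.05, close to the 5.17% of all genes. These were Txndc5, a disulfide isomerase, with a log2 difference of 0.68, and Sil1, an exchange factor of Hspa5, with one of -0.66 (limma adjusted p = 0.846 for both). The stress regulators Xbp1, Atf4 and Ddit3 differed by -0.21, -0.58 and -0.22, and the ER chaperones Calr, P4hb and Hyou1 by -0.31, 0.16 and 0.39, with intervals that included 0. The median of the list was 0.04, beside 0.01 over all genes.

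A single liver stood out in this list. Rragc S74N/+ replicate 1 held the highest level of 20 of the 41 genes (48.8%), beside 14.8% of all tested genes. It was also highest for 6 of the 17 tested ER members (35.3%), Hspa13, Dnajc3, Dnajb11, Dnajb9, Dnajc14 and Pdia6. Among those 17 it stood out less, since Rragc +/+ replicate 4 was highest for 5 (29.4%), beside 16.5% of all tested genes. Dnajc3 was at 1169 in Rragc S74N/+ replicate 1 and at 1161 in Rragc +/+ replicate 3. Rragc S74N/+ replicate 1 was singled out after the values were seen. Hyou1, the exchange factor and HSP110 of the ER, was at 1084 in it and at 216 to 474 in the other 7 livers. Manf, a secreted ER stress protein, was at 948 in it and at 75.8 to 389 in the others. Hspa5, at 5296, and Hsp90b1, at 1616, did not follow, since Hspa5 was higher in 2 other livers and Hsp90b1 was at its lowest. Among the 38 tested members outside the ER, the same liver was highest for 5 (13.2%).

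Of 23 tested HSF1 pathway genes and co-chaperones, 0 passed adjustment and 2 had an unadjusted limma p under 0.05, beside 5.17% of all genes. Bag3, the co-chaperone that joins HSP70 to Hspb8, was at 133, 163, 146 and 126 in Rragc +/+ and 101, 102, 110 and 65.3 in Rragc S74N/+ livers. The groups did not overlap, as for 2.94% of all genes, and the log2 difference was -0.60 with an interval from -1.11 to -0.09 (limma adjusted p = 0.846). Fkbp5, an HSP90 co-chaperone induced by glucocorticoids, differed by 1.32 (limma adjusted p = 0.846) and ranged from 7.48 to 88.1. Hsf1 itself was low, at 8.41 to 42.2. The list of 14 subunits of the chaperonin TRiC and of prefoldin and the list of 12 tested mitochondrial folding genes each held 0 genes with an unadjusted p under 0.05. Cirbp and Rbm3, induced by cold and often moving against heat shock genes, differed by -0.36 and 0.23 (limma adjusted p = 0.846 and 0.857).

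The tissue carried the marks of liver, with the summed hepatocyte markers at 270840 to 487140 normalized counts. An unadjusted limma p under 0.05 was held by 5.17% of all genes. It was held by 2 of 2 tested kidney markers (Gpx3 and Kap, both lower). The pancreas marker Cela1, the only 1 of 11 pancreas markers listed, was also lower at that p. Of 12 Kupffer markers 4 had such a p, with Marco, Adgre1 and C1qc higher and Cd163 lower. So did 2 of 10 endothelial, 2 of 8 stellate and smooth muscle, 1 of 2 lymphocyte and 1 of 9 hepatocyte markers, all higher. Of the red cell, cholangiocyte and clock gene lists 0 genes did, and of 8 immediate early genes 1 did (Junb, higher). The other 3 kidney markers listed, Slc34a1, Slc12a1 and Lrp2, had means under 10 in both genotypes and overlapped, so the summed list rests on Gpx3 and Kap. The summed kidney list was 219 to 354 in Rragc +/+ and 60.4 to 114 in Rragc S74N/+ livers, the Kupffer list 3648 to 5354 and 3581 to 5624, and the lymphocyte list 73.9 to 117 and 172 to 251. The lymphocyte sum rests mostly on Igkc, at 45.3 to 78.5 in Rragc +/+ and 108 to 168 in Rragc S74N/+ livers. The other listed lymphocyte markers were low, with Trbc2 the highest of them at a mean of 11.8. Gpx3 was the 1 gene past adjustment (log2 difference -1.95, limma adjusted p = 0.0411). The part of other cells in the chaperone levels was not tested. No 2 of the 8 libraries agreed within sampling noise (chi-square per degree of freedom of 15.8 or more over the 28 pairs), so none looked like a library entered again under another label.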

How the data were processed

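RNA from 8 livers was sequenced from the 3′ end (QuantSeq FWD kit, oligo-dT priming, no molecular identifiers stated). The authors aligned the reads to GRCm38 with TopHat2 2.0.10, Bowtie 1.0.0 and SAMtools 0.1.19, checked them with FastQC 0.11.7, used HTSeq 0.6.1 with its strand option and a GENCODE annotation for counting, and scaled counts with DESeq. The deposited signal is a normalized count per gene and liver. All values (100%) were whole multiples of a step of their liver, within a tolerance of 0.001, and gave the whole reads behind them.

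Differences (Rragc S74N/+ minus Rragc +/+) were tested with limma 3.58.1 (R 4.3.3, empirical Bayes with a trend) on log2(normalized count + 1), which understates changes of low genes, for genes averaging 10 or more. Genotype was the model's single term, and p were adjusted by Benjamini-Hochberg at 0.05. The recovered reads were also tested with edgeR 4.0.16 (quasi-likelihood) and DESeq2 1.42.0. Exact permutation tests over livers used all 70 labellings (smallest p 0.0286) or all 40320 pairings. Other settings were pseudocounts 0.1 and 5, no filter, a mean of at least 50, TMM and upper-quartile scaling, no trend, an added age term, mice aged 3 months only and each liver left out in turn. The scripts were tested on simulated data.

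Named members were well-known ones of each compartment, the 5 highest and 5 lowest differences, the 5 most abundant and the 5 most variable; other genes were those of the lists with an unadjusted p under 0.05 and 10 regulators or chaperones. Genes outside this rule were named after their values were seen. Members and lists were chosen with earlier results of these data known. A planned pair with Hspa1a was not run. Gene positions are those of GENCODE M21 on GRCm38, a release next to the one counted against. Promoters are RefSeq windows. Genes with near-identical copies, Hspa1b and Hspa8 among them, could share reads. Intervals are for the difference between genotype means, given the spread between these mice, and 4 mice per genotype limit the precision.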

Additional observations from a re-analysis of the deposited data

Results flagged for a closer look

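Values were examined for livers far from the other 3 of their genotype, in 116 groups of 4 livers. There were 5 such values, where 5.8 would be expected by chance. On the log2(normalized count + 1) scale, Dnajb9 was at 7.61 in Rragc S74N/+ replicate 1 and at 5.88 to 6.09 in the other Rragc S74N/+ livers. Hspd1 was at 10.5 in Rragc S74N/+ replicate 4 (2 months old) and at 9.78 to 9.83 in the others. In the same liver Bag3 was at 6.05, against 6.67 to 6.80, and Atf4 at 9.79, against 10.4 to 10.5. Kap, a kidney marker, was at 7.36 in Rragc +/+ replicate 4 and at 6.11 to 6.26 in the other Rragc +/+ livers.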

How the results depend on the processing

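No member passed adjustment under any of the 19 alternatives, and the members' median log2 difference ran from -0.09 to -0.01. The count of members at an unadjusted p under 0.05 was 0, and it was 1 with no filter (Hspa12a, of 63), 1 with edgeR, 1 with DESeq2 and 3 in 3-month-old mice alone, where 5.43%, 5.53%, 6.05% and 5.74% of all genes passed. Leaving out a liver gave 0 to 8. The 8 came without Rragc S74N/+ replicate 3 (Dnajb11, Dnajc13, Dnajc19, Hsp90b1, Hspa4, Hspb6, Pdia4 and Pdia5), when 15.0% of all genes also passed and the smallest limma adjusted p of a member was 0.26. The count of all genes past adjustment, 1, was 0 with upper-quartile scaling, without the trend, with age as a covariate and in 3-month-old mice, 10 with DESeq2, and 0 to 2 without a liver, with 2 (Gpx3 and Marco) when Rragc S74N/+ replicate 3 was left out. The cause was not tested.

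Some differences changed sign, none of them past the threshold. Hspa13 was at 0.018 with edgeR, 0.017 with DESeq2, 0.089 with age and 0.42 in 3-month-old mice. Hspa5 was at 0.023 with age and 0.37 in 3-month-old mice, where Pdia3 was at 0.038, Hspa8 at -0.16, Hspa9 at -0.044 and Dnajc12 at -0.054. Without a liver the ranges were -0.26 to 0.18 for Hspa5, -0.19 to 0.14 for Hspa13, -0.075 to 0.57 for Pdia6, -0.23 to 0.40 for Dnajb9, -0.082 to 0.019 for Dnajc3, -0.063 to 0.15 for Hspa8, -0.28 to 0.054 for Hsp90aa1, -0.22 to 0.031 for Hspd1, -0.13 to 0.037 for Hspe1, -0.022 to 0.31 for Hspa9, -0.084 to 0.37 for Dnajb1, -0.11 to 0.97 for Dnajc12, -0.55 to 0.16 for Xbp1, -0.54 to 0.045 for Ddit3, -0.0086 to 0.76 for Hyou1 and -0.016 to 0.37 for P4hb.

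Of the 7 pairs, 0 passed; 1 did without the 2 farthest livers, where Hspa8 and Hsp90aa1 had r = 0.99 and Hspa8 and Cirbp 0.11, and 0 to 1 without a liver, the 1 being Hspd1 and Hspe1 (r = 0.89) without Rragc +/+ replicate 4. Hsph1 and Dnajb1 had r = 0.0065 on deviations from the genotype means. Without a liver, r ran from -0.41 to 0.74 for Hspa8 and Hsp90aa1, -0.35 to 0.29 for Hspa5 and Hspa8, -0.16 to 0.020 for Hspa8 and Cirbp, and -0.43 to 0.31 for Hsph1 and Dnajb1. No paired analysis was possible because replicate numbers only follow the order of the samples. With 4 livers per genotype, differences within the intervals given above remain possible, and reads per liver limit the members with few reads.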
